A study of Mus musculus with 6 samples.

Results

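The insulin and insulin-like growth factor (IGF) gene group described here holds 10 genes, the receptors Insr and Igf1r, the adaptors Irs1 and Irs2, and the IGF-binding proteins Igfbp2, Igfbp3, Igfbp4, Igfbp5, Igfbp6 and Igfbp7. They were taken from the deposited table by gene symbol, 10 of 22001 symbols that stand alone on a row, and all 10 averaged at least 1 FPKM (a gene level counted in fragments and scaled to transcript length and library size). The family was proposed with its levels known, Irs2 having been seen to vary, so levels and ranges below are a description with no test. Epithelial cells were enriched from mammary tumors of 6 female FVBN mice of 7 weeks, and polyA RNA was sequenced. Every mouse carried PyMT, the polyoma middle T oncogene. The labels name 3 as PyMT control and 3 as PyMT Elp3 cKO, where Elp3, the catalytic subunit of the tRNA-modifying Elongator complex, was deleted with MMTV-Cre. The MMTV promoter drives Cre in mammary epithelium, and it is known to act in some other secretory tissues too.

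Same-numbered columns of both labels held identical values in all 24308 rows (0 rows differed for each of the 3 numbers). The table therefore gives 3 distinct profiles, called 1, 2 and 3 by replicate number, and each carries both labels. No comparison of genotypes can be read from it, and profiles were treated as single samples. Summed FPKM was 621793 to 636842, and depth in reads is unknown. Luminal epithelial markers, among them keratins and adhesion genes, were at 1 FPKM or more for 10 of 10 genes.

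Insulin and the IGFs bind receptor tyrosine kinases at the cell surface. The activated receptors phosphorylate IRS adaptors, which recruit PI3 kinase and switch on AKT and mTOR. IGF-binding proteins hold IGFs outside the cell and can prolong or block their action. In mouse mammary gland Igfbp5 is known as a secreted protein of involution, and in PyMT mammary tumors of mice the adaptors are known to differ, loss of Irs2 lowering metastasis and loss of Irs1 raising it.

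Promoter letters are given for the adaptors and for the 3 members that ranged most widely. RefSeq (GRCm38.p6, the same assembly as mm10) windows were matched by symbol for 9 of the 10 members, all but Insr. Igfbp2 matched 2 windows, of which the upstream one is printed. Each sequence is the 250 bases before the RefSeq start, written 5′ to 3′ on the gene's strand. In Irs1 and Irs2 the capitals mark the longest runs that both windows share, in Igfbp2 the letters GGGCGG and CACGTG, and in Igfbp3 the letters TATANA on either strand. Igfbp5 held none of these and is all lower case. Most of the Igfbp5 window lies inside the deposited row of that gene, which ends at 72875080. All of the Irs2 window lies inside the deposited Irs2 span, which ends at 11054541.
Irs1 (chr1:82291440-82291689, minus strand): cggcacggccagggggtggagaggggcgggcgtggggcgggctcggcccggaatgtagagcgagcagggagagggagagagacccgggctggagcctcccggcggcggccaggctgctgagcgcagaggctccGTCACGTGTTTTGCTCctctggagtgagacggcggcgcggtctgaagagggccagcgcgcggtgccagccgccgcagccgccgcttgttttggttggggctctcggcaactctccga
Irs2 (chr8:11008930-11009179, minus strand): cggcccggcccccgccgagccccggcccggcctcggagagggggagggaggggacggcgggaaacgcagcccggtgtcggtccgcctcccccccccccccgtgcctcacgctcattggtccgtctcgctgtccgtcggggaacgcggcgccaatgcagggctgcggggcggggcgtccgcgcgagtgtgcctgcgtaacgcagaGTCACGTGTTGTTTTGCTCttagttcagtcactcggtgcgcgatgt
Igfbp2 (chr1:72824230-72824479, plus strand): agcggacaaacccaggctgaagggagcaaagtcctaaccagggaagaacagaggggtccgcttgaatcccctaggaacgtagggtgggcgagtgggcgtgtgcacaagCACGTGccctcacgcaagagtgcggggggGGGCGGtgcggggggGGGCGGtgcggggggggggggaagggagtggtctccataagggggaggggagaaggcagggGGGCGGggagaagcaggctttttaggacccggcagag
Igfbp3 (chr11:7213924-7214173, minus strand): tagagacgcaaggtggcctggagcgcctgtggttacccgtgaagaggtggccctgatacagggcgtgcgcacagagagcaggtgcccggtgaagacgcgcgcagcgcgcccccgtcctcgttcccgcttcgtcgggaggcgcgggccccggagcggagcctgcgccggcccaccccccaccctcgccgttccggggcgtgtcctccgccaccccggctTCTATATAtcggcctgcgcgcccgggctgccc
Igfbp5 (chr1:72874866-72875115, minus strand): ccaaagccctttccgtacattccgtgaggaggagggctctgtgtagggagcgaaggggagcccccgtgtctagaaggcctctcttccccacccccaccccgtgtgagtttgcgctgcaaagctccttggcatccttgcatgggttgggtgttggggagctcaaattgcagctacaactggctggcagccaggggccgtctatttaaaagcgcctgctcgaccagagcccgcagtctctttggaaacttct
The adaptors shared a pair of runs of 10 letters, GTCACGTGTT and TGTTTTGCTC, chosen after the sequences were seen. Searched on both strands, GTCACGTGTT was in 23 of 32851 windows of the same length (0.07%) and TGTTTTGCTC in 21 (0.0639%). In Irs1 the runs overlap, the first ending 108 bases before the start and the next beginning at 111. In Irs2 they meet at a single base, 37 before the start. The first run holds CACGTG, the E-box letters bound by many helix-loop-helix factors, which 6.02% of all windows hold and which Igfbp2 also has. GGGCGG was in 5 of the 10 member windows (of Igf1r, Igfbp2, Igfbp7, Irs1 and Irs2) against 32.7% of all windows. None of the letters searched were found in the other Igfbp2 window. TATANA was in those of Igfbp3, Igfbp4 and Igfbp6, against 22.6%. By base composition the adaptors were alike, at 72.4% G or C in Irs1 and 72.8% in Irs2, while Igfbp5 had 58.8%. The letters are a description of these windows and no evidence of binding.

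**Figure D1:**
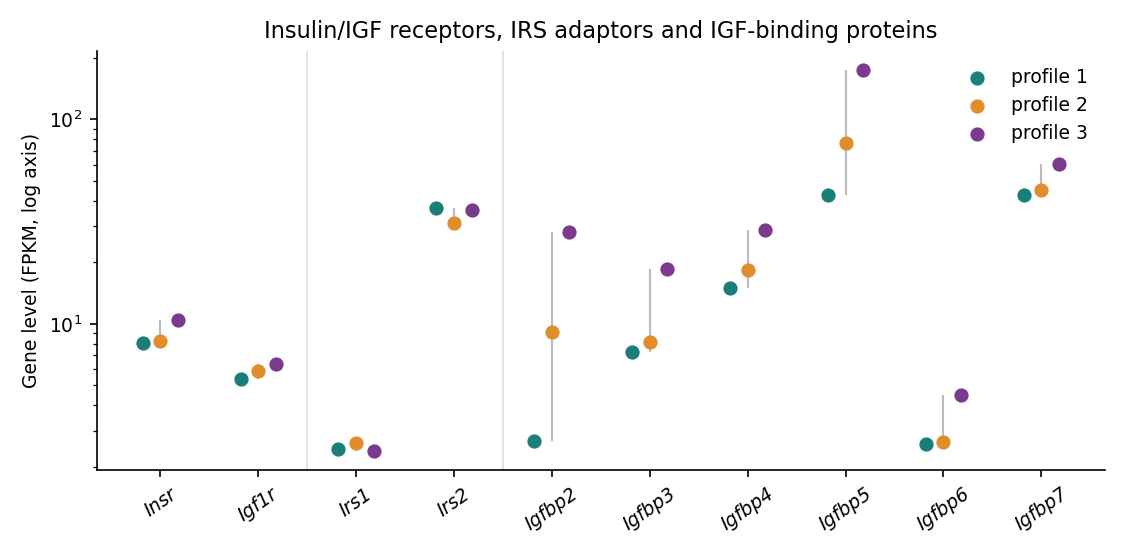
Level of each member in the 3 profiles (y axis, FPKM on a log axis), with receptors, adaptors and binding proteins separated by vertical lines and a grey line from the lowest to the highest profile. All 6 binding proteins were lowest in profile 1 and highest in profile 3 (Igfbp6 was lowest in profile 2 under both other scalings), and Irs1 and Irs2 were neither.

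Both receptors were expressed at moderate levels. Insr, the insulin receptor, stood at 8.02, 8.26 and 10.4 FPKM in profiles 1, 2 and 3. Igf1r, the receptor for IGF1 and IGF2, stood at 5.35, 5.87 and 6.35 FPKM. Profile 1 was the low one and profile 3 the high one for each, by 1.30 and 1.19 times, although under quantile normalization Insr was lowest in profile 2. Insr exceeded Igf1r in every profile, the ratio of levels being 1.50, 1.41 and 1.64. The row of Insr covers chromosome 8, 3150775 to 3279632, and that of Igf1r chromosome 7, 67951766 to 68233670 (mm10), so splice forms of either receptor are summed.

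In the rows used, the adaptors were far apart in level, and each was steady. Irs2 had 36.7, 31.3 and 36.1 FPKM in profiles 1, 2 and 3, in the row with the higher mean. Irs1 had 2.43, 2.62 and 2.39 FPKM. In these rows Irs2 was thus above Irs1 by 15.1, 12.0 and 15.1 times, and no profile came near to reversing that order. The other Irs2 row, described below, was under Irs1 in profile 1, at 0.955 FPKM, and above it in profiles 2 and 3. Irs1 had the narrowest range of the 10 members, 0.09 on the log2(FPKM + 1) scale, and Irs2 ranged over 0.22. The median range over 10770 genes averaging at least 1 FPKM was 0.27. On this scale, which understates changes of low genes, the highest profile is set against the lowest. Irs1 covers chromosome 1, 82233104 to 82291439.

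Irs2 is on more than 1 row, and the choice of row decides how it reads. A second Irs2 row stood at 0.955, 19.0 and 19.96 FPKM, low in profile 1 alone, a range of 3.42 against 0.22 in the row used. Profile 2 was 19.9 times and profile 3 20.9 times profile 1 in that second row, whereas profile 1 was the highest of the 3 in the row used. Both rows, with one for the noncoding gene 9530052E02Rik, carry the same span of chromosome 8, 10984475 to 11054541. The row of 9530052E02Rik was low throughout, at 0.396, 0.446 and 0.635 FPKM.

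The span joins neighbouring genes on opposite strands. In GENCODE M21 Irs2 lies on the minus strand at chromosome 8, 10984681 to 11008458, and 9530052E02Rik on the plus strand at 11007850 to 11054541. Their 5′ ends, where transcription starts, thus overlap by 609 bases in GENCODE. The RefSeq start of Irs2, used for its promoter letters, lies further upstream, its window being 11008930 to 11009179. Row numbers on chromosome 8 follow strand. In the first run of row numbers 488 of 495 rows whose symbol has a GENCODE strand were on plus (98.6%), and in the next run 437 of 444 were on minus. The row used for Irs2 stands in the run of minus genes and the varying row in the run of plus genes. Irs2 itself is a minus gene, and the library kit is not described as keeping strand. How fragments were divided between the rows was not tested. The row used held 97.5%, 62.2% and 64.4% of the FPKM of both Irs2 rows in profiles 1, 2 and 3. Second and further rows of repeated symbols averaging at least 1 FPKM numbered 85, the varying Irs2 row included. Of these, that row among them, 10 ranged over 1 or more (11.8%), against 3.65% of the 10770 genes.

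**Figure D2:**
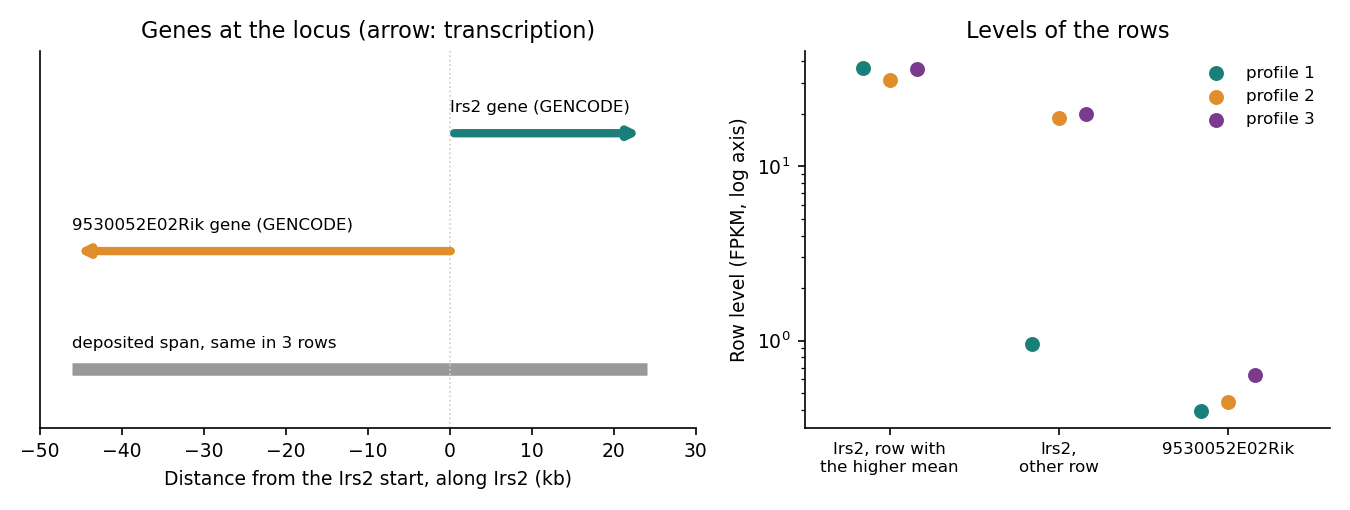
Left, Irs2, 9530052E02Rik and the deposited span shared by 3 rows, as distance from the GENCODE Irs2 start along the gene (x axis, kb). Arrows give the direction of transcription. Right, the level of each row in the 3 profiles (y axis, FPKM on a log axis), where the Irs2 row with the higher mean stays between 31.3 and 36.7 FPKM and the other Irs2 row drops to 0.955 in profile 1.

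Genes whose profile was most like that of Irs2 were found by Euclidean distance of centred log2(FPKM + 1) values over the 3 profiles, among 8111 rows of a single symbol averaging at least 5 FPKM. For the row used they were Ralgapb, Tcf12, Epha2, Slbp and Zdhhc20, at distances of 0.0042 to 0.0098, all with a slight dip in profile 2. For the second row they were Col6a1, Postn, Bgn, Col6a2 and Tnc. Their distances were 1.26 to 1.39, so none came close. With 3 points such likeness is easily met and is a description only.

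Among the members, the binding proteins varied most. Igfbp2, which binds IGF2 with preference, stood at 2.68, 9.16 and 28.2 FPKM in profiles 1, 2 and 3, a 10.5-fold spread. Igfbp5 stood at 42.6, 76.5 and 175 FPKM, a 4.11-fold spread. Igfbp3, the main IGF carrier of blood serum, stood at 7.28, 8.13 and 18.4 FPKM, a 2.53-fold spread. In each of the 3 genes profile 1 was lowest and profile 3 highest, and in Igfbp3 profiles 1 and 2 lay close together. Their ranges of 2.99, 2.01 and 1.23 on log2(FPKM + 1) were wider than those of 99.8%, 99.5% and 97.9% of genes. These 3 of 10 members ranged over 1 or more, where 3.65% of the 10770 genes did. Without profile 3 the count was 1, Igfbp2 alone, so the count of 3 rests on that profile.

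Igfbp2 and Igfbp5 are neighbours, convergent on chromosome 1. The row of Igfbp2 covers 72824480 to 72852471 and that of Igfbp5 72857932 to 72875080, and the GENCODE genes are 5457 bases apart. Both were lowest in profile 1 and highest in profile 3, but not in proportion: Igfbp5 was 15.9, 8.35 and 6.20 times Igfbp2 in profiles 1, 2 and 3. Igfbp3 lies on chromosome 11, 7206091 to 7213923.

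The remaining binding proteins followed the same order with smaller spreads, except that Igfbp6 was lowest in profile 2 under median-ratio scaling and quantile normalization. Igfbp4, a secreted inhibitor of IGF action that is cut by the protease Pappa, stood at 15.0, 18.4 and 28.8 FPKM. Igfbp6, which also prefers IGF2, stood at 2.58, 2.64 and 4.48 FPKM. Igfbp7, a distant relative that binds IGFs weakly and is known from blood vessel walls, stood at 42.7, 45.2 and 60.3 FPKM. For all 3, profile 3 was set apart and profiles 1 and 2 were near each other. Their spreads were 1.92, 1.73 and 1.41-fold. The row of Igfbp4 covers chromosome 11, 99041260 to 99052643, that of Igfbp6 chromosome 15, 102144186 to 102149512, and that of Igfbp7 chromosome 5, 77310484 to 77408045. The Igfbp7 row runs past the GENCODE gene, at 77349240 to 77408041, and what the rest takes in was not tested.

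Lowest in profile 1 were 8 of 10 members, and the same 8 were highest in profile 3, the exceptions being Irs1 and Irs2. Under median-ratio scaling 7 were lowest in profile 1, without Igfbp6, and under quantile normalization 6, without Igfbp6 and Insr. Of the 10770 genes, 40.1% were lowest in profile 1, 36.5% highest in profile 3, and 23.9% both. All members were read in the same 3 libraries, so they are not independent of each other. The median range was 1.06 over the 6 binding proteins and 0.22 over the other 4 members.

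**Figure D3:**
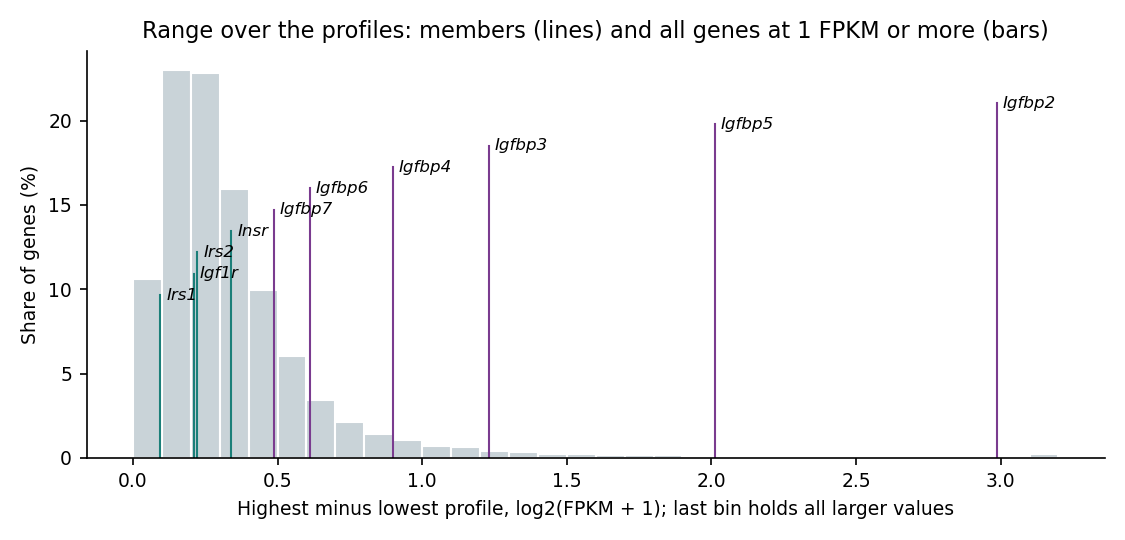
Range over the 3 profiles on log2(FPKM + 1) (x axis) for the 10770 genes averaging at least 1 FPKM (bars, share of genes in percent on the y axis, last bar holding all larger values). Vertical lines mark the members, green for receptors and adaptors and purple for binding proteins; their heights only space the names. Igfbp3, Igfbp5 and Igfbp2 lie at 1.23, 2.01 and 2.99.

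Since FPKM is per length, the binding proteins can be summed. Profile 1 held 113 FPKM of them in total, profile 2 held 160 and profile 3 held 315. Igfbp5 and Igfbp7 had equal parts in profile 1, 37.7% and 37.9%. In profile 3 Igfbp5 held 55.5% and Igfbp7 19.1%, with profile 2 between them at 47.8% and 28.2%. Igfbp2 went from the second smallest part in profile 1, 2.38%, to 8.95% in profile 3. The make-up of the pool thus differed between profiles as well as its size.

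**Figure D4:**
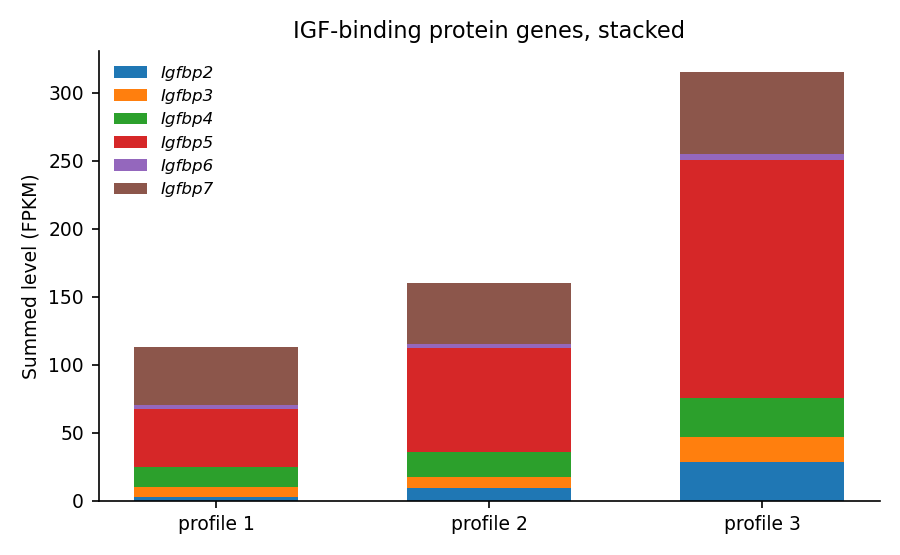
Levels of the 6 binding protein genes stacked per profile (y axis, summed FPKM). The total is 113, 160 and 315 FPKM, and the red Igfbp5 part is the largest in profiles 2 and 3.

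By median the members ranked Igfbp5 (76.5 FPKM), Igfbp7 (45.2), Irs2 (36.1), Igfbp4 (18.4), Igfbp2 (9.16), Insr (8.26), Igfbp3 (8.13), Igf1r (5.87), Igfbp6 (2.64) and Irs1 (2.43). Ranges over profiles overlapped for 5 of the 9 neighbouring pairs. These were Igfbp5 with Igfbp7, Igfbp4 with Igfbp2, Igfbp2 with Insr, Insr with Igfbp3, and Igfbp6 with Irs1. The remaining neighbours, such as Irs2 and Igfbp4, kept apart in all 3 profiles. Medians of the most variable members depend on which profiles are taken: without profile 1 the median of Igfbp5 was 126 FPKM, that of Igfbp2 18.7 and that of Igfbp3 13.3. Igfbp5 had a mean above that of 92.7% of the 10770 genes and Irs1 above 11.9%.

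Markers of other cell types moved between the profiles too, and their part in the binding protein levels was not tested. The 10 fibroblast and matrix markers summed to 108, 221 and 369 FPKM in profiles 1, 2 and 3. Lowest in profile 1 were 9 of 10 and highest in profile 3 were 7, beside 40.1% and 36.5% of all genes. Dcn, a matrix proteoglycan, stood at 18.2, 54.4 and 66.8 FPKM, and none of the 10 was at 0. Pdgfra, at 3.62, 10.9 and 9.00, Fbln1 and Thy1 were highest in profile 2. Fn1 was lowest in profile 2, at 19.5, 17.7 and 43.7. The order of the sums is that of the binding proteins. Of the 10 markers, 9 ranged over 1 or more, beside 3.65% of all genes. Their median range was 1.61, against 1.06 over the 6 binding proteins. In bulk RNA fewer cells of a type and less RNA per cell cannot be told apart.

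Other lists were less uniform. The 10 endothelial markers summed to 42.1, 43.1 and 20.1 FPKM, lowest in profile 3, and none was at 0. Among them Flt1 was level, at 2.14, 2.22 and 2.14, and Vwf alone was highest in profile 3, at 0.195, 0.186 and 0.309. The 10 basal and myoepithelial markers summed to 534, 688 and 645 FPKM, most of it keratin, and the list was split. Its 5 genes with a range of 1 or more were Acta2, Myh11, Cnn1, Tagln and Oxtr, most of them contractile genes. All 5 were lowest in profile 1 and highest in profile 3, as the binding proteins and 23.9% of all genes were. Levels of Acta2, the actin of smooth muscle, were 18.5, 34.3 and 74.0 FPKM. Krt14, a basal keratin, at 239, 320 and 215, and Trp63, a basal transcription factor, at 5.55, 7.80 and 4.84, were highest in profile 2. The pericyte, myeloid, adipocyte, lymphocyte and skeletal muscle lists summed to at most 21.4 FPKM in any profile, with Cd3d, Ms4a1, Nkg7, Myh1, Myh2 and Myh4 listed at 0 throughout.

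Profile 3 differed from the others in salivary secretory genes. The list, part of which had been picked from these profiles, summed to 42.5, 43.5 and 1049 FPKM over 11 genes, and Smr3a, a salivary secretory gene, stood at 0.615, 0.239 and 561. Every binding protein was highest in that profile, and the part of salivary transcripts in this was not tested. Aqp5, a water channel, was level at 39.6, 39.7 and 42.9 FPKM, and so was Lpo, at 1.20, 1.21 and 1.23. Aqp5 made up most of the sums of profiles 1 and 2. Between these profiles Igfbp2 differed 3.41-fold and Igfbp5 1.80-fold, and the other binding proteins by at most 1.22-fold. Luminal markers summed to 10751, 11418 and 11804 FPKM.

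**Figure D5:**
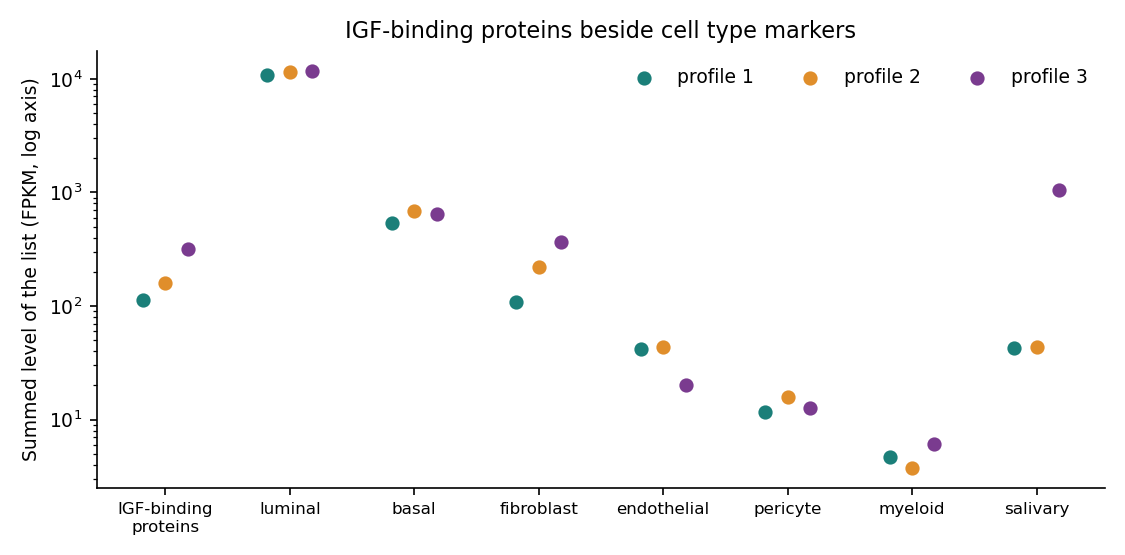
Summed level of the 6 binding proteins and of 7 marker lists in the 3 profiles (y axis, FPKM on a log axis). By sum, fibroblast markers follow the order of the binding proteins, though Pdgfra, Fbln1, Thy1 and Fn1 do not singly. Summed endothelial markers are lowest in profile 3 (20.1 FPKM), and summed salivary markers reach 1049 FPKM there.

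The ligands were nearly absent. Ins1 and Ins2, the insulin genes, were listed at 0 in all profiles. Igf1 stood at 0.0601, 0.235 and 0.158 FPKM, and Igf2 at 0.338, 0.147 and 0.252. None of the 4 ligand genes reached 1 FPKM in these cells, while both receptors did. Igf2r, which clears IGF2 from the surface, was well expressed at 19.4, 26.0 and 24.7 FPKM, whereas Insrr, an orphan relative of the insulin receptor, stood at 0.0295, 0.0116 and 0. Of the other adaptors Irs3 was listed at 0 and Irs4 did not exceed 0.0283, so Irs1 and Irs2 were the IRS genes expressed at 1 FPKM or more.

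Around the binding proteins, Igfbp1 was listed at 0 in all profiles. Pappa, the protease that frees IGF from Igfbp4, stood at 0.0138, 0.0369 and 0.208 FPKM, and its relative Pappa2 at no more than 0.0526. Stc2, an inhibitor of Pappa, was far higher, at 37.1, 33.3 and 29.0. Htra1, a secreted protease known to cut binding proteins, stood at 56.2, 44.1 and 59.4. Adamts1, a secreted metalloproteinase, was the member of this list with a range of 1 or more, at 15.9, 8.79 and 32.8 FPKM, lowest in profile 2. Igfals, the serum partner of Igfbp3, stood at 1.47, 1.72 and 1.83.

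The rest of the pathway was mostly expressed. Over 89 listed genes other than the 10 members, from ligands and proteases to FOXO targets, 85 were measured and 68 averaged at least 1 FPKM. Their median range was 0.30, and 3 of 68 ranged over 1 or more (4.41%, against 3.65% of all genes). Lowest in profile 1 were 25 (36.8%) and highest in profile 3 were 32 (47.1%), beside 40.1% and 36.5% of all genes. The list thus lay near the background in range, unlike the binding proteins, a difference that was not tested. The fibroblast and matrix markers had a wider median range than the binding proteins, 1.61 against 1.06.

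Among adaptors beside the IRS genes, Crk had 86.2, 65.8 and 69.9 FPKM, and Grb2, which links receptors to Ras, 41.6, 34.3 and 40.0. Of the PI3 kinase and AKT list 14 of 16 measured genes were at 1 FPKM or more. Akt1 had 79.8, 81.7 and 79.7 FPKM and Inppl1, a lipid phosphatase, 43.6, 49.3 and 53.4. The mTOR list was at 1 FPKM or more for 12 of 12 genes. It was led by Eif4ebp1, a translation repressor that mTOR turns off, at 367, 370 and 376, and by Rheb, the GTPase that activates mTOR, at 96.6, 69.3 and 73.2. None of these lists held a gene with a range of 1 or more.

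All 14 brakes on the receptors and IRS proteins were at 1 FPKM or more. Nedd4, a ubiquitin ligase, stood at 143, 152 and 170 FPKM and Ptprf, a receptor phosphatase, at 79.9, 78.9 and 99.8. Grb10, an adaptor that inhibits both receptors, stood at 13.3, 12.3 and 12.5. None of the 14 ranged over 1 or more. Of the mRNA-binding proteins named for IGF2, Igf2bp2 stood at 8.96, 12.3 and 10.0, and Igf2bp1 and Igf2bp3 stayed under 0.36.

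FOXO factors, which AKT holds out of the nucleus, and genes they are known to drive held 2 genes with a range of 1 or more among 13 at 1 FPKM or more, where 3.65% of all genes had one. Lowest in profile 1 were 7 of the 13 and highest in profile 3 were 9, beside 40.1% and 36.5% of all genes. Pdk4, a kinase that shuts off pyruvate dehydrogenase, stood at 3.24, 8.10 and 23.1 FPKM, a range of 2.51. Txnip, an inhibitor of glucose uptake, stood at 75.2, 127 and 160, a range of 1.08. Both were lowest in profile 1 and highest in profile 3, as the binding proteins were. Irs2, in the row used, and Insr, which FOXO factors are also known to drive, ranged over 0.22 and 0.34. The second Irs2 row ranged over 3.42, lowest in profile 1 and highest in profile 3. The part of FOXO factors in any of these levels was not tested. The highest mean of the list was that of Gadd45a, a stress gene, at 208, 185 and 238 FPKM, and Foxo1 itself stood at 27.0, 21.5 and 22.8.

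Beside the profiles the authors' deposited table gives a summary per gene. It lay above the highest profile for 5 of 10 members (Irs1, Igf1r, Igfbp2, Igfbp3 and Igfbp6), against 15.6% of all 10770 genes, so it takes in values that the columns do not show. Read as a mean of 9 values with each profile entered 2 times, it leaves a remainder above every profile for 8 of 10 members, against 29.3% of genes. Igfbp3, the member furthest above its profiles, had a summary of 45.4 FPKM.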

How the data were processed

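The authors deposited FPKM per gene for 6 columns and a summary column headed as a total of FPKM, in 1 table. The genome build was mm10 and the tools were Cuffdiff, Cufflinks 2.1.1 and TopHat2 2.0.9, per the submitters' processing notes. The use of each tool, with annotation, filters and library scaling, was not given in the sources used here. Column names identified the samples (0 columns unmatched). A limma test of genotype had been planned and was not run, because same-numbered columns are copies. Computed here were ranges of log2(FPKM + 1), counts against 10770 single-symbol genes averaging at least 1 FPKM, and promoter letters from RefSeq. For repeated symbols the row with the highest mean was used; 1366 rows without a symbol and 514 rows naming several genes were left out of gene results. Row starts were raised by 1. Named were all members, the 2 highest and any wide gene of each pathway list, and the 5 rows most like Irs2; other genes named, marker genes included, and the likeness search for the second Irs2 row, were picked with their values known. The members and lists were chosen with earlier results of these data known. The range and scaling calculations alone were checked, on simulated rows without noise. Python 3.11.15, pandas 2.3.3, numpy 2.4.6 and matplotlib 3.10.9 were used. Without read counts no counting interval is printed. Alternatives were median-ratio scaling, quantile normalization, a pseudocount of 0.1, summed rows, the second Irs2 row and leaving out each profile.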

Additional observations from a re-analysis of the deposited data

Results flagged for a closer look

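The authors' deposited summary column, which enters no level by profile above, exceeded all 3 profiles for 5 of 10 members, which a mean of the shown columns cannot do. This held for 15.6% of the 10770 genes. For Igfbp3 the summary was 45.4 FPKM against at most 18.4 in the profiles, for Irs1 3.89 against 2.62, for Igf1r 8.24 against 6.35, for Igfbp6 6.25 against 4.48 and for Igfbp2 28.6 against 28.2. Irs2, at 36.5 FPKM in the row used and 14.8 in the second row, lay within its profiles.

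Times 9, the summary ended at 4 decimals (within 1e-07) in 85.4% of 6491 rows between 10 and 1000 FPKM, against at most 28.5% for other multipliers from 2 to 11. The profiles, 2 times each as they are entered, were taken off 9 times the summary and the rest was divided by 3. If the summary is such a mean, that remainder is the mean of 3 values not shown, whose samples are not known; it was below 0 in 0 of 24308 rows. For Igfbp3 it was 114 FPKM, 10.1 times the mean of the profiles, where the median over the 10770 genes was 0.95 times. For Igfbp2 it was 59.1 FPKM (4.43 times), for Igfbp6 12.3 (3.80 times), for Irs1 6.73 (2.72 times), for Igf1r 13.0 (2.22 times) and for Igfbp4 39.3 (1.90 times). Insr, at 11.6 FPKM, and Irs2, at 40.0, were 1.30 and 1.15 times their means. Igfbp5, at 113, and Igfbp7, at 53.7, were below profile 3. The remainder was above every profile for 8 of 10 members, against 29.3% of genes. In the second Irs2 row it was 17.7 FPKM, near profiles 2 and 3. No genotype can be given to these values, and no test was made.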

How the results depend on the processing

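No paired analysis was possible because the genotype columns hold the same values, so every paired difference is 0. The Irs2 range of 0.22 was 0.56 with its rows summed and 3.42 in the second row, the latter chosen after seeing the data; leaving out each profile gave 0.021 to 0.22. The count of members ranging over 1 or more, 3, was 1 to 3 when each profile was left out and 4 with the second Irs2 row. Under alternatives, the counts of 8 were 6 to 9 (lowest in profile 1) and 8 to 9 (highest in profile 3). Without the profile a count refers to, there is no value. With another profile left out, fewer profiles are compared, and the share of all genes for that was not computed. Of 70 member medians under alternatives, 67 moved by less than 1 SD of the profiles, which is wide for the binding proteins. For most of the 70 this was fixed beforehand, so the count is no measure of stability. Leaving out 1 of 3 profiles cannot shift a median by 1 SD, and the choices of row change Irs2 alone. Without profile 1 the median of Igfbp2 went from 9.16 to 18.7 FPKM, that of Igfbp5 from 76.5 to 126 and that of Igfbp3 from 8.13 to 13.3; without profile 2 that of Igfbp2 was 15.4 and that of Igfbp3 12.9, and without profile 3 that of Igfbp2 was 5.92. The share of genes with a range of 1 or more was 1.9% with no minimum level and 3.04% at 5 FPKM. Lowest in profile 1 were 35% of genes with median-ratio scaling and 33.8% with quantile normalization. With 3 profiles and no read counts, no error is attached to a single level.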
